A study of Mus musculus with 2 samples.

Results

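The genes described here are the mouse zinc finger protein genes whose symbol is Zfp followed by exactly 3 digits, taken from a table of open chromatin peaks. Of the 16934 genes to which the table assigns a peak, 221 have such a symbol, and they hold 413 of the 43864 assigned peaks and of the 63316 peaks in all. RefSeq lists 322 symbols of this form, so that 101 have no peak assigned to them. The assay was ATAC-seq. Its transposase, Tn5, cuts DNA that is not covered by nucleosomes and leaves adapters at the cut. The cells were primary cardiac fibroblasts from mouse heart, and all of them received TGF-β, a cytokine that turns fibroblasts into contractile, matrix-producing myofibroblasts. The cytokine was given at 5 ng/ml for 24 h. The library labelled NC came from cells with a scrambled siRNA and the library labelled SiPiezo2 from cells with an siRNA against Piezo2, a stretch-gated ion channel. The labels give neither strain, age, sex nor number of animals, and there was no library without TGF-β. The series text names a Tet3 knockout with Cre instead, and the methods describe minced tissue, and these differences are not settled by the labels.

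With 1 library per group no difference has a replicate check. Values are the deposited normalised read densities, summed over the peaks of a gene, and ratios are log2((SiPiezo2 + 1)/(NC + 1)) of them. The 95% exact binomial (Clopper-Pearson) intervals given in brackets come from whole reads recovered from the densities and cover counting error only. The counting windows of 2000 bp held 4615335 reads in NC and 2754046 in SiPiezo2, a median of 58 and 36 per peak over the whole table, so the SiPiezo2 library limits the precision. The median member had 109 reads in NC and 63 in SiPiezo2. Peaks called in both libraries scattered with 2.15 times the variance that counting gives, as the median over peaks. An siRNA acts on the mRNA, so the accessibility of the Piezo2 gene, which was 334 in NC and 242 in SiPiezo2 over 14 peaks, does not check the knockdown. Of the fibroblast markers 10 of 12 had a peak, with Lum and Thy1 absent, and their summed density was 1521 in NC and 1297 in SiPiezo2. Of the cardiomyocyte markers 2 of 7 had a peak and Myh6, Actc1, Ttn, Myl2 and Nppa were absent, with sums of 113 and 120. Endothelial markers had peaks at 4 of 5 genes, with sums of 359 and 382, smooth muscle and pericyte markers at 4 of 5, with sums of 579 and 460, macrophage and leukocyte markers at 2 of 5, with sums of 133 and 112, and mesothelial markers at 3 of 3, with sums of 98.8 and 84.3. The part of these other cells in the values below was not tested.

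Zinc finger proteins of this kind bind DNA or RNA through repeated fingers, in each of which cysteines and histidines hold a zinc ion. Many of those named Zfp also carry a KRAB domain, which brings in the scaffold TRIM28 and, through it, histone methylation by SETDB1, and they are best known for silencing retroviral and other repeated sequence. Others act without KRAB, for example as regulators of the choice between fat, bone and fibroblast fates, at promoters, on telomeres or on ribosomes. KRAB genes tend to lie in clusters that grew by duplication, so neighbours can be much alike.

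The members fall into 2 groups by the KEGG ortholog column of the table. The ortholog of KRAB zinc finger proteins was assigned to 106 members and not to 115. That assignment is incomplete, since Zfp445, a known KRAB protein, lacks it, and the other members may hold further KRAB genes. RefSeq promoters, each with 250 bases before and 50 after the annotated start of the gene on assembly GRCm38.p6, were matched by symbol for 180 members, 94 of them with the KRAB ortholog. KRAB members had promoters with a median of 53.8% G+C and 12 CpG dinucleotides, the other members 61.5% and 20, and all genes with a peak and a promoter in RefSeq 59.3% and 18. A motif of the kind bound by ZNF143, ACTACANNTCC on either strand, was present in 20 of 94 KRAB promoters (21.3%), in 7 of 86 promoters of other members (8.14%), in 17 of 48 promoters of KRAB genes outside the naming rule (35.4%) and in 3.65% of the promoters of genes with a peak. It occurs in 2.10% of all RefSeq promoters. This motif was picked after short words common in KRAB promoters had been looked at. It is shown for 6 KRAB members with a single RefSeq promoter and a peak that the table classes as promoter within 1 kb or 5′ UTR. Whether that peak lies on the promoter shown was not measured. The 6 are the 3 with the lowest and the 3 with the highest ratio. The letters ca follow the match in all 6, so the likeness runs on past the capitals on that side. Capitals mark the match and the coordinates are of GRCm38.p6, with the strand on which the motif reads as given.
Zfp933, chr4:147848420-147848470, minus strand: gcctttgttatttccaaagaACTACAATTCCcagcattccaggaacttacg
Zfp940, chr7:29853654-29853704, plus strand: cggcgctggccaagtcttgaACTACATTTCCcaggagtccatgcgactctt
Zfp595, chr13:67332580-67332630, plus strand: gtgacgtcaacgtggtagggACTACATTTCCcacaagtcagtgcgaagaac
Zfp109, chr7:24237692-24237742, plus strand: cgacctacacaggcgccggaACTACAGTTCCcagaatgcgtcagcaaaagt
Zfp112, chr7:24112334-24112369, minus strand: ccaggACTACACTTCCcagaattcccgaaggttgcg
Zfp180, chr7:24081855-24081905, minus strand: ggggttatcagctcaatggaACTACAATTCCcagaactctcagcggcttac
Among the 27 members with the motif the form ACTACATTTCC was found in 14 and ACTACAATTCC in 6, and the match was centred within 50 bases of the start in 15. Zfp933 had a density of 22.9 in NC and 13.5 in SiPiezo2, a log2 ratio of -0.72, whereas Zfp180 had 44.8 and 60.1, a ratio of 0.42. The median ratio was -0.14 over the 20 KRAB members with the motif and -0.15 over the 74 without.

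The AP-1 motif TGANTCA was in 6 of the 180 promoters of members (3.33%), against 6.10% of those of genes with a peak, and these 6 members had ratios from -0.34 to 0.42. The CCAAT box, letters CCAAT, was in 50 of 94 KRAB promoters (53.2%), 31 of 86 others (36.0%) and 37.7% of those of genes with a peak. The TEAD motif GGAATG was in 11.7% of members' promoters and 13.3% of those of genes with a peak. The CArG box of SRF was in 2 of 180 (1.11%), close to the 1.34% of those of genes with a peak. The GC box GGGCGG was in 47.8% of members' promoters and in 56.3% of those of genes with a peak, and the ETS motif CCGGAAG in 17.8% and 14.6%. Over all members the median ratios with and without the motif were -0.15 and -0.13 for AP-1, -0.14 and -0.13 for TEAD, -0.16 and -0.10 for CCAAT, -0.10 and -0.16 for the GC box and -0.10 and -0.14 for ETS, and the 2 with a CArG box had a median of -0.25. Wider gaps within a group were picked after their values were seen. KRAB members had -0.10 over 37 with the GC box and -0.21 over 57 without. Among the other members the medians were -0.18 over 31 with CCAAT and -0.07 over 55 without. For TEAD they were 0.05 over 10 other members with it and -0.13 over 76 without. KRAB members went the other way for TEAD, with -0.18 over 11 and -0.13 over 83. None of these gaps has a test. Whole promoters are shown for the KRAB member with the lowest ratio and the other member with the highest, among members above the median summed density that have a promoter peak, with every CpG in capitals.
Zfp760, chr17:21707491-21707790, plus strand: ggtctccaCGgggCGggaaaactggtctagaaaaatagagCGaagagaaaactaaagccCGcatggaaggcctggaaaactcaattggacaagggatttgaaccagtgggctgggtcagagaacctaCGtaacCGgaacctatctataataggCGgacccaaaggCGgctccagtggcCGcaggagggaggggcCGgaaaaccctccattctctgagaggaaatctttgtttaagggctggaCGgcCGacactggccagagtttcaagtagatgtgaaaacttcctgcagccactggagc
Zfp945, chr17:22867085-22867384, minus strand: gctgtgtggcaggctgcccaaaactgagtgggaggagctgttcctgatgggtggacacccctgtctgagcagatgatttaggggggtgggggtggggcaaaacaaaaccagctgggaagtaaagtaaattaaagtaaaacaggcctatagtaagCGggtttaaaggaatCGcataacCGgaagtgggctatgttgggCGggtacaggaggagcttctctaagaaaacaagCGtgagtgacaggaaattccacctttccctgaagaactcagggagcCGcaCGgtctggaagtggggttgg
The promoter of Zfp760 holds 12 CpG and that of Zfp945 holds 7, and their G+C shares are 53.3% and 52.3%. The median over genes with a peak was 18 CpG. Their ratios were -0.84 and 0.50, by which they were chosen. For 13 members the promoter shares at least 50 runs of 25 bases with that of another symbol. In 11 of them it overlaps the promoter of a gene on the other strand, such as Zfp142 with Bcs1l, Zfp661 with Mrps5 and Zfp830 with Cct6b, and a peak there cannot be given to either gene. In the other 2, Zfp944 with Zfp942 and Zfp983 with Gm10509, the match lies elsewhere, so reads may come from the copy and the values of Zfp944 and Zfp983 are uncertain.

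Accessibility of the members lay slightly lower in SiPiezo2 than in NC. The median density per gene was 44.8 in NC and 40.6 in SiPiezo2, and the median log2 ratio was -0.13 with quartiles of -0.33 and 0.07, beside -0.09 over all genes. With median-of-ratios scaling the members' median moved to 0.01 and that of all genes to 0.04, so the side of 0 rests on the scaling. The members' median minus that of all genes was between -0.07 and -0.03 in the alternatives run. Lower by 1.5-fold or more were 16 members (7.24%), close to the 6.6% of all genes, and higher were 3 (1.36%), beside 1.54% of all genes. At fold 2 these counts were 1 and 0, beside 0.839% and 0.154% of all genes. The counting interval lay wholly below 0 for 26 members (11.8%), beside 13.6% of all genes, and wholly above 0 for 11 (4.98%), beside 3.8%. For 184 members (83.3%) it held 0, beside 82.6% of all genes. By single peaks, 56 of 413 (13.6%) were lower past 1.5-fold, beside 12.8% of the peaks assigned to genes, and 18 (4.36%) were higher, beside 2.82%.

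**Figure D1:**
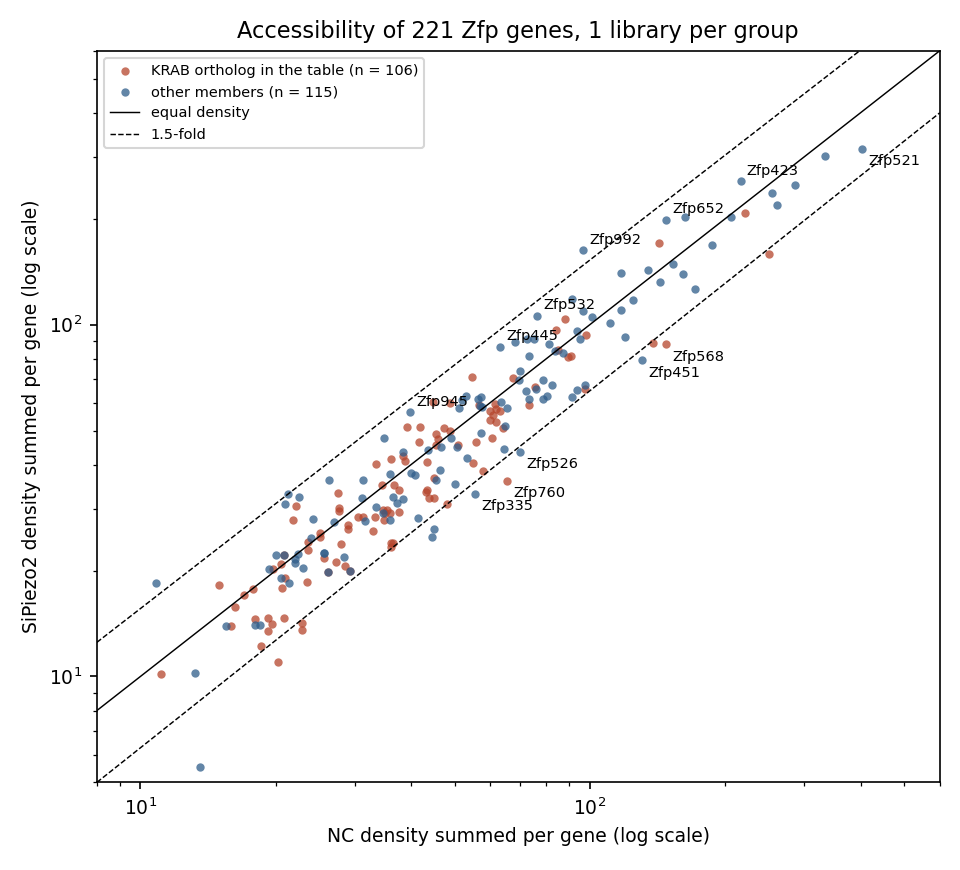
Density summed per gene in the NC library (x axis, log scale) against the SiPiezo2 library (y axis, log scale), 1 point per member, with the KRAB ortholog (106 members) or without it (115). Most points lie between the dashed 1.5-fold lines, 16 members lie at or below the lower line and 3 at or above the upper one.

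The 16 lower members, named after their values were seen, were Zfp983, Zfp760, Zfp975, Zfp957, Zfp651, Zfp568, Zfp335, Zfp933, Zfp451, Zfp526, Zfp551, Zfp948, Zfp949, Zfp940, Zfp873 and Zfp599. Their ratios ran from -1.15 to -0.59. Of these, Zfp651, Zfp873 and Zfp975 share their promoter with a gene on the other strand and Zfp983 has a like promoter elsewhere, as given above. The 3 higher ones were Zfp276, Zfp831 and Zfp992, with ratios of 0.61, 0.72 and 0.75. None of these 3 was among the 180 members matched to a RefSeq promoter. They were therefore not checked for a shared promoter and are left out of the motif values. Several of the lower and higher members rest on few reads. Zfp983, with the lowest ratio of all members, had 29 reads in NC and 9 in SiPiezo2 at a single weak peak. The intervals of Zfp551, Zfp933 and Zfp831 held 0, at [-1.43, 0.07], [-1.51, 0.02] and [-0.10, 1.55].

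KRAB members had few peaks, and these lay close to gene starts. A single peak was assigned to 84 of the 106 KRAB members (79.2%), to 60 of the 115 other members (52.2%) and to 49.1% of all genes. Of the members' peaks 55.2% lay within 1 kb of the nearest annotated transcription start, against 33.7% of all assigned peaks. The nearest start was that of another gene for 35 of the 413 peaks, and for 1 of the 228 within 1 kb. Within 1 kb of the nearest start lay 84.7% of the KRAB members' peaks and 40.6% of the others'. Introns held 16.1% of the KRAB members' peaks and 55.4% of the others'. Peaks called in both libraries made up 45.8% of the members' peaks and 36.8% of all assigned ones. Number of peaks goes with the ratio across all genes, so members were also set beside genes of like number. With 1 peak the median was -0.13 over members and -0.06 over all genes, with 2 to 3 peaks it was -0.10 and -0.10, and with 4 or more peaks it was -0.15 and -0.15.

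Promoter peaks, those in the table's class of promoter within 1 kb, which leaves out peaks in a 5′ UTR, exon or intron, numbered 131 over 118 members. Their median ratio was -0.09, beside -0.03 over all 9251 promoter peaks. Lower past 1.5-fold were 14 of them (10.7%), beside 6.33% of all promoter peaks, and higher was 1 (0.763%), beside 1.98%. The other 282 peaks of members had a median of -0.14, beside -0.15 over the other peaks of all genes. With no replicates, the difference at promoters has no test.

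Within promoters the KRAB members were the lower ones. The 68 KRAB promoter peaks had a median density of 35.3 in NC and 30.0 in SiPiezo2 and a median ratio of -0.14, and 51 of them (75%) were below 0, against 53.7% of all promoter peaks. The 63 promoter peaks of the other members had medians of 37.7 and 36.3 and a median ratio of 0.01, and 47.6% were below 0. The 39 promoter peaks of KRAB genes with other names had a median of -0.09, and 61.5% were below 0. Promoter peaks were also split into 4 equal groups by mean density. From weakest to strongest, the KRAB medians were -0.20, -0.13, -0.09 and -0.14, where all promoter peaks had -0.14, -0.06, -0.03 and 0.09. The KRAB peaks in them numbered 17, 21, 19 and 11, so the widest gap, in the strongest group, rests on 11. The peaks called in both libraries gave -0.10 for 43 KRAB peaks, 0.06 for 43 peaks of other members and 0.04 over all. The KRAB median minus that of all promoter peaks was between -0.14 and -0.10 on the log2 scale in the alternatives run, and that of the other members between -0.02 and 0.04. The KRAB median itself stayed below 0, at -0.0032 with median-of-ratios scaling. KRAB promoters also differ from the others in base composition, as given above, and the part of this in the difference was not tested.

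**Figure D2:**
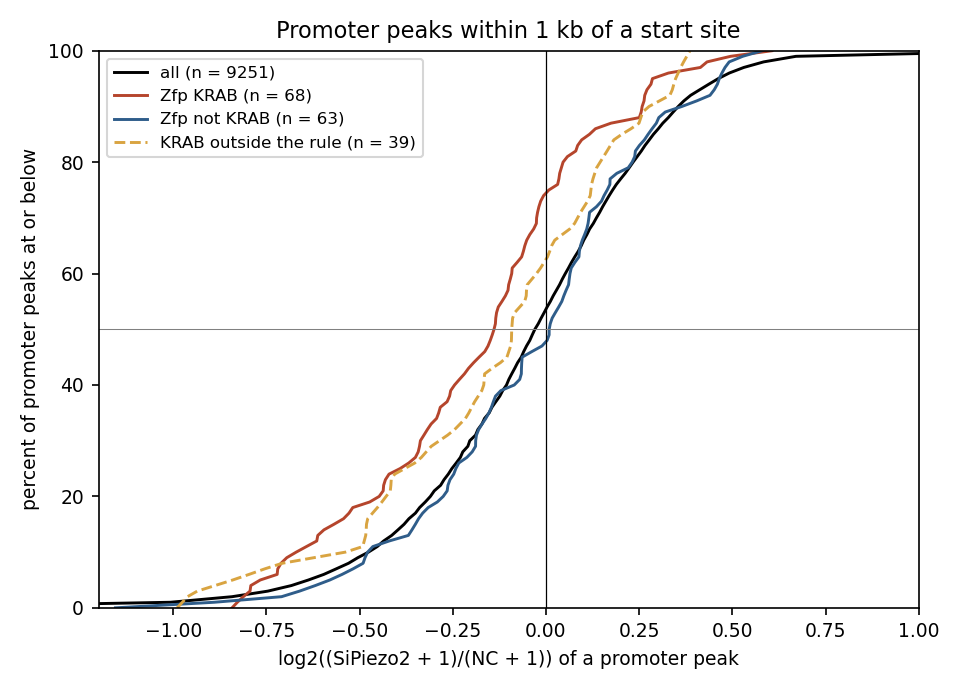
Percent of promoter peaks (y axis) at or below a given log2 ratio of SiPiezo2 to NC (x axis), for all 9251 promoter peaks, 68 of KRAB members, 63 of other members and 39 of KRAB genes outside the naming rule. The curve of KRAB members lies to the left of that of all peaks over most of its range and crosses 50% at -0.14, while the curve of the other members follows that of all peaks.

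By gene, 10 of 106 members with the KRAB ortholog were lower past 1.5-fold (9.43%) and 0 were higher. Of the 115 without it, 6 were lower (5.22%) and 3 higher (2.61%). The shares over all genes were 6.6% and 1.54%. The median was -0.14 over KRAB members, -0.09 over the others and -0.10 over 59 KRAB genes with other names. Among families of zinc finger factors outside the rule, 33 Zbtb genes had a median of -0.02, 18 Klf and Egr genes one of -0.05, and 72 genes with other Zfp symbols one of -0.09. Chromosomes 7, 17, 9, 8 and 6 hold at least 8 KRAB members each. On chromosome 8 the median of 9 was -0.33, where all 911 genes of that chromosome had one of -0.07, and on chromosome 17 that of 15 was -0.28, beside -0.07 over 783 genes. The 35 on chromosome 7 had -0.14 beside -0.09, and the 10 on chromosome 9 had -0.16 beside -0.12. On chromosome 6 the median of 8 KRAB members was 0.05, beside -0.08.

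Zfp568, a KRAB protein that silences a placental transcript of Igf2, had 148 in NC and 87.8 in SiPiezo2, a ratio of -0.74 [-1.12, -0.38]. Its 3 peaks, a pair at the promoter with overlapping windows and another in intron 6, had -0.66, -0.79 and -0.76, so all lay lower by a like amount. Zfp760 had the lowest ratio among members above the median density, with 65.3 in NC and 36.0 in SiPiezo2 at a single promoter peak (chr17:21926257-21926824 in the coordinates of the table), a ratio of -0.84 [-1.31, -0.39]. Zfp948, a KRAB neighbour of Zfp760 that was picked after its value was seen, had 250 and 159 over 5 peaks. Its ratio was -0.65 [-0.97, -0.34]. The 3 peaks within 1 kb of the start had -0.61, -0.72 and -0.87, but their windows overlap and share reads, and the 2 in later introns had 0.21 and -1.09. Over windows that do not overlap the ratio was -0.50, which does not pass 1.5-fold. Zfp708, which represses a class of retroviral repeats, had 43.3 and 33.4, and Zfp809, which recognises the primer binding site of murine leukaemia virus, had 98.0 and 93.3. Their ratios, -0.37 [-0.87, 0.12] and -0.07 [-0.42, 0.28], have intervals that hold 0. Zfp445, a guardian of imprinted methylation, went the other way, with 63.1 in NC and 86.5 in SiPiezo2, a ratio of 0.45 [0.01, 0.89]. The difference came mainly from a peak before its start, of the promoter class from 1 to 2 kb, with 14.6 and 31.8, while the peak at the start had 26.5 and 29.4. Over the 2 peaks of Zfp445 whose windows do not overlap the ratio was 0.63, which passes 1.5-fold. Zfp932 had no peak.

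The partners through which KRAB proteins silence were described by a list. All 29 had a peak, with a median ratio of -0.05. Of these, 0 were lower past 1.5-fold, beside 6.6% of all genes, and 2 were higher, beside 1.54%. Trim28, the scaffold, had 33.3 in NC and 34.3 in SiPiezo2, and Setdb1, the histone methyltransferase, had 17.8 and 19.5. Cbx5, which encodes the heterochromatin protein HP1α, had 351 and 234 over 7 peaks, a ratio of -0.58 [-0.80, -0.37] that missed 1.5-fold by little.

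Among the members known from mesenchymal fate and development, 10 of the 11 listed had a peak and 0 passed 1.5-fold in either direction, beside 6.6% and 1.54% of all genes. A ratio below 0 was seen in 9 of the 10, beside 62.6% of all genes, and with median-of-ratios scaling in 5, beside 44.0%. Zfp521, a large zinc finger protein that holds back adipocyte and osteoblast differentiation, had the highest density of any member in NC, 403, and 316 in SiPiezo2, a ratio of -0.35 [-0.52, -0.19]. Of its 14 peaks 13 were below 0, beside 62.6% of all assigned peaks, and 13 lay in introns, where 66.2% of all peaks were below 0. The exception, in intron 3 about 61.1 kb from the start, had 16.6 in NC and 33.8 in SiPiezo2, a ratio of 0.99 [0.37, 1.62], and the peak at the start had 36.3 and 35.7. Zfp423, its relative that commits cells to the adipocyte lineage, had 216 in NC and 255 in SiPiezo2, a ratio of 0.24 [0.04, 0.44]. Of its 10 peaks 8 were above 0 and 2 below, where 62.6% of all assigned peaks were below 0. Called in the NC library only were 8 of the 10, beside 61.2% of all assigned peaks. The peak furthest above 0 had 17.8 and 32.0. The side of 0 of these related genes rests on which peaks are taken. Over peaks called in both libraries Zfp521 was at 0.27 and Zfp423 at 0.14, and by the strongest peak alone Zfp521 was at -0.024 and Zfp423 at -0.11. Zfp516, a factor of brown fat, had 286 and 249 over 8 peaks, and Zfp536, a repressor of neuronal differentiation, had 161 and 139 over 8 peaks. Their ratios were -0.20 [-0.41, 0.01] and -0.21 [-0.46, 0.03]. The intervals of Zfp467, Zfp503, Zfp608, Zfp609, Zfp462 and Zfp217 also held 0, with ratios from -0.24 to -0.02. Zfp703 had no peak.

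**Figure D3:**
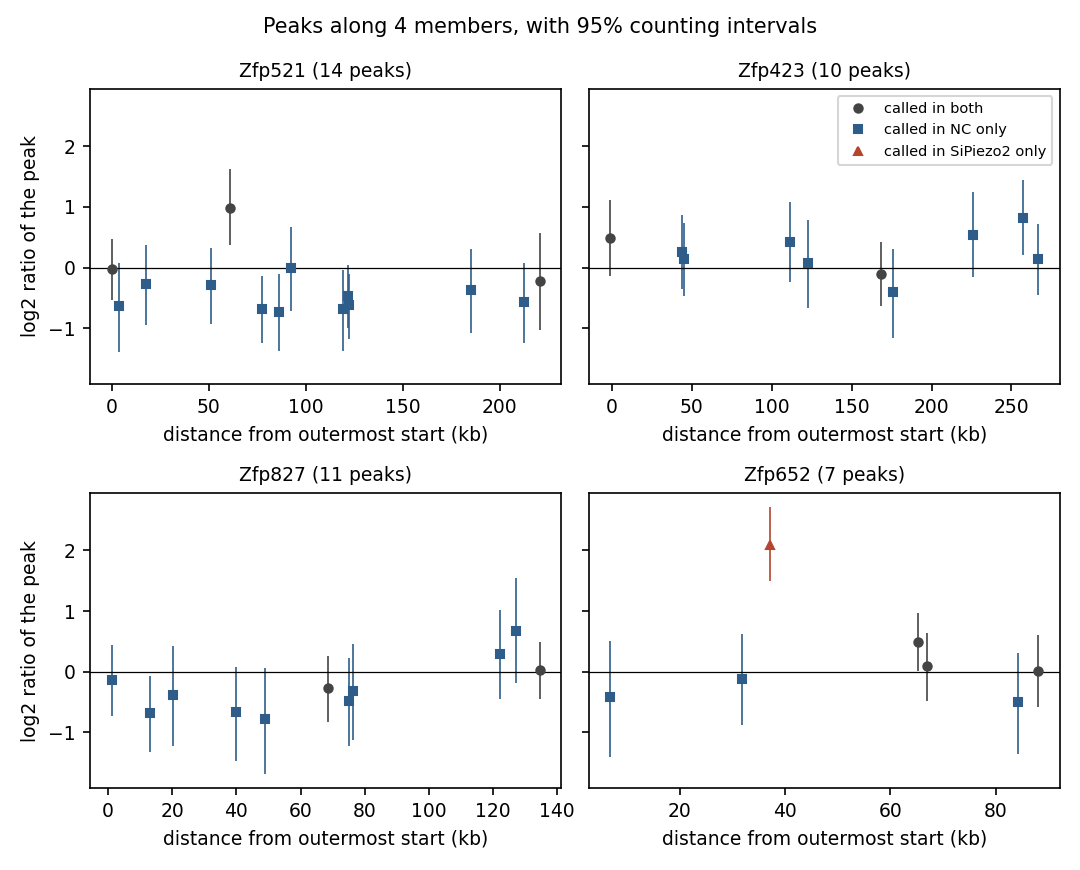
Log2 ratio of each peak (y axis) against its distance from the outermost annotated start of the gene in kb (x axis) for Zfp521, Zfp423, Zfp827 and Zfp652, with 95% counting intervals as bars and symbols for where a peak was called. Zfp521 has 13 of 14 peaks below 0, Zfp423 has 8 of 10 above 0, and a single peak of Zfp652 stands at 2.09.

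Zfp652, a repressor that works with the ETO family protein CBFA2T3, had 148 in NC and 199 in SiPiezo2, a ratio of 0.42 [0.18, 0.67]. The difference came from a peak in exon 2 of 6 (chr11:95640402-95641032 in the table's coordinates), 37.2 kb from the start. That peak was called in SiPiezo2 only and had 13.1 in NC and 58.8 in SiPiezo2, from 31 and 95 reads, a ratio of 2.09 [1.49, 2.72], the highest of all 413 peaks of members. The other 6 peaks of Zfp652, all in introns, had ratios from -0.51 to 0.49, 3 of them below 0, and no promoter peak was listed. Of the ETO family, Cbfa2t3 had 73.7 and 79.5 with a ratio of 0.11 [-0.23, 0.44], Cbfa2t2 had 253 and 197 with -0.36 [-0.57, -0.15], and Runx1t1 had 231 and 162 with -0.51 [-0.77, -0.25].

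Of 13 listed members that act at promoters, telomeres or chromatin complexes 11 had a peak, and 1 was lower and 0 higher past 1.5-fold, beside 6.6% and 1.54% of all genes. A ratio below 0 was seen in 6 of the 11, beside 62.6% of all genes, and the interval lay wholly below 0 for 5, beside 13.6% of all genes, and wholly above for 3, beside 3.8%. Zfp335, a coactivator needed by neural progenitors, had 55.4 in NC and 33.1 in SiPiezo2 at a peak 0.61 kb before its start, a ratio of -0.73 [-1.22, -0.26]. Zfp410, a dedicated activator of the remodeller gene Chd4, had 93.7 and 65.0, a ratio of -0.52 [-0.87, -0.18]. Of its 2 peaks, that of the promoter class had 58.9 and 37.2, a ratio of -0.65, while Chd4 itself had 45.0 and 40.2. Zfp592, a partner of ZMYND8, had 41.5 and 28.2 with -0.54 [-1.08, -0.02], and Zfp148, a factor of GC-rich promoters, had 120 and 92.4 with -0.37 [-0.67, -0.08]. In Zfp148 the 5 peaks in introns were below 0, while a peak at the promoter, which overlaps that of 1700007L15Rik on the other strand and cannot be given to either gene, was at 0.17. Zfp827, which brings the NuRD complex to telomeres, had 261 and 219 over 11 peaks, a ratio of -0.25 [-0.45, -0.05]. Its 8 peaks up to 76.4 kb from the start were below 0, and the 3 at 122.3 kb or further were above it. On the other side were Zfp143, whose human relative binds the promoter motif described above, with 91.4 and 118 at its start and 0.37 [0.08, 0.65], Zfp384 with 68.3 and 89.1 and 0.38 [0.04, 0.71], and Zfp532, also a partner of ZMYND8, with 76.1 and 106 and 0.47 [0.16, 0.78]. The intervals of Zfp638, Zfp292 and Zfp644 held 0. Zfp281 and Zfp687 had no peak.

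Members with roles in RNA, ribosomes or the spindle had ratios from -0.34 to -0.13, and all 6 intervals held 0, beside 82.6% of all genes. All 6 were below 0, beside 62.6% of all genes, and with median-of-ratios scaling 5 were, beside 44.0%, with Zfp598 at 0.0040. They were Zfp622, a factor of ribosome maturation, with 78.4 in NC and 61.6 in SiPiezo2, Zfp106, an RNA-binding protein, Zfp207, a spindle protein, Zfp346, which binds double-stranded RNA, Zfp830, and Zfp598, a ligase that marks collided ribosomes, with 111 and 101. Of the members linked to cardiac stress, Zfp260, a cofactor of GATA4 in hypertrophy, had 76.0 and 65.7, Zfp667 had 60.9 and 55.5, and Zfp418 had 22.2 and 30.4. Their intervals also held 0, that of Zfp418 reaching from -0.15 to 1.03.

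**Figure D4:**
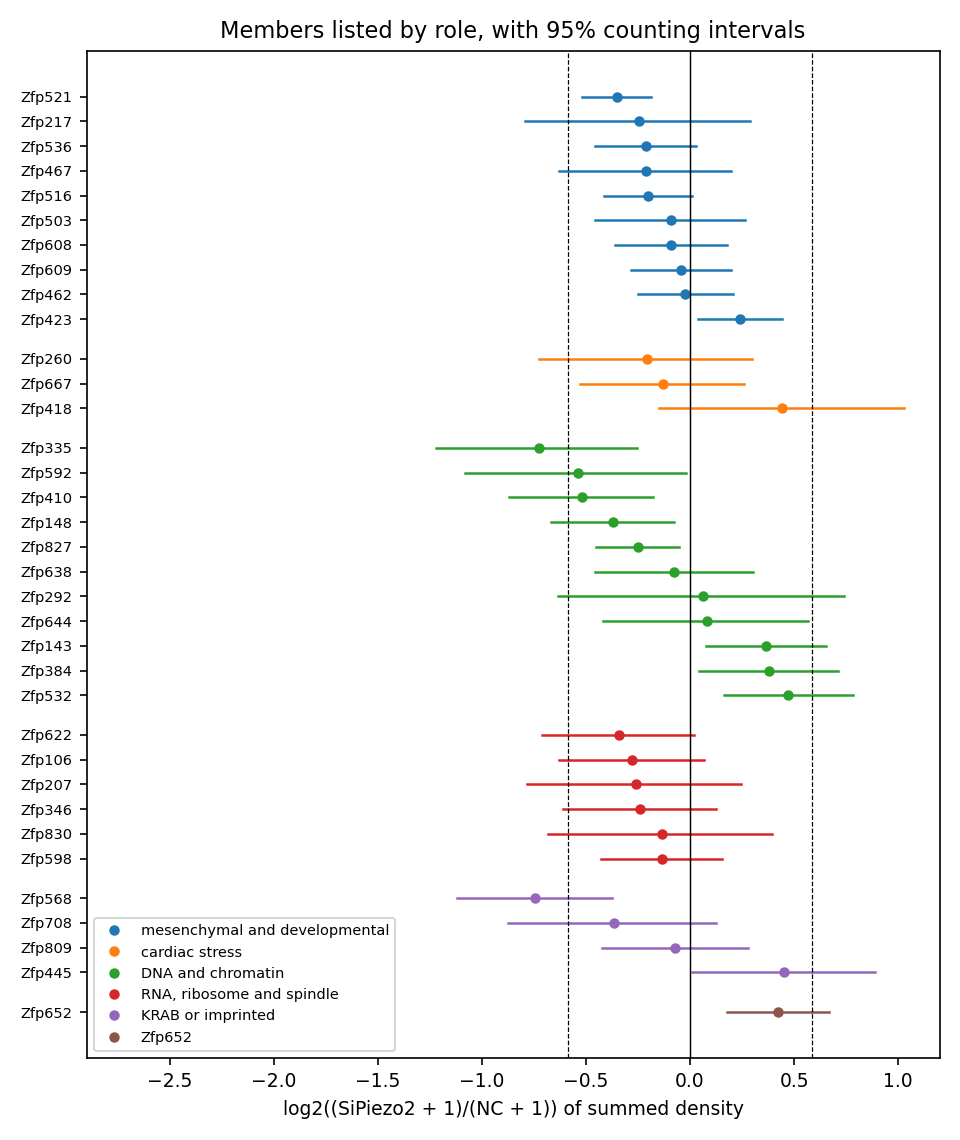
Log2 ratio of summed density of SiPiezo2 to NC (x axis) for the 35 listed members with a peak, grouped and coloured by role, with 95% counting intervals as bars and dashed lines at 1.5-fold. Zfp335 and Zfp568 are the members past the lower line, and none is past the upper one.

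Further members were named for their extreme ratio among those above the median density or for their number of peaks. Zfp451, a SUMO ligase that also restrains SMAD-driven transcription, had 130 in NC and 79.1 in SiPiezo2, a ratio of -0.71 [-1.07, -0.36]. Its 5 peaks had uneven ratios. The peak at the start had 25.9 and 11.8, and a pair of peaks in the 3′ UTR with overlapping windows had 35.0 and 13.8 and 35.0 and 18.2, while the remaining ones were at -0.12 and 0.16. Zfp526 had 70.0 and 43.6 at a single peak in the 5′ UTR, a ratio of -0.67 [-1.10, -0.26]. Zfp992 had 96.3 and 162, a ratio of 0.75 [0.33, 1.16], and its 4 peaks, all in intron 1 with windows that partly overlap, had nearly equal ratios from 0.69 to 0.75. Zfp945, whose promoter is shown above, had 39.7 and 56.5, a ratio of 0.50 [0.07, 0.92]. Zfp407, with 14 peaks, had 334 and 301 and a ratio of -0.15 [-0.33, 0.03], with 10 of the peaks below 0, beside 62.6% of all assigned peaks.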

How the data were processed

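ATAC-seq libraries of TGF-β-treated primary mouse cardiac fibroblasts were analysed, 1 per group. The table that the authors deposited lists peaks. Its signal values are read densities, normalised between the libraries by the authors, and the layout is that of an MA-plot tool. The submitters' processing notes name BWA 0.7.12 and mm10, but only 3 of 219 members' gene starts lie within 10 bp of those of GRCm38, and 1 scaffold name is one of GRCm39. Positions of peaks are therefore given as the table has them, sequences come from RefSeq on GRCm38.p6 and the 2 were not joined. Methods also name Picard, MACS2 and featureCounts. The table's columns of the authors' own comparison (log2 ratios, mean log2 densities and p-values) were not used.

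Densities were summed per symbol with a pseudocount of 1, and a member was counted as lower or higher past 1.5-fold. Log2 ratios understate the change of weak peaks for that reason. Whole reads in windows of 2000 bp were recovered from the densities, within 0.1 of a whole number for 100% of the peaks, with 1 count taken off each window as the count such tools add. That addition is assumed. Gene intervals take their width from windows that do not overlap within the gene. Intervals are 95% exact binomial (Clopper-Pearson) and cover counting error only. Recovery and intervals were checked on simulated counts with counting error only and with the same window, added count and fit. That check does not cover the wider scatter of the real peaks given above. No test of the condition was possible.

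Members named were lists fixed by role, the 5 lowest and 5 highest ratios among members above the median summed density and the 5 with most peaks (of Zfp516 and Zfp536, tied at 8, the first by name was taken). Members and lists were chosen with earlier results of these data known. Counts of zinc fingers and protein domains were not analysed here. Values of the partner genes higher past 1.5-fold are not reported here. Scripts ran on scipy 1.17.1, pandas 2.3.3 and numpy 2.4.6 under Python 3.11.15, with figures drawn by matplotlib 3.10.9.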

Additional observations from a re-analysis of the deposited data

How the results depend on the processing

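No paired analysis was possible because there was 1 library per group. The members' median of -0.13 became 0.0066 with median-of-ratios scaling, -0.044 with equal total density, -0.024 with recovered reads at equal total, -0.019 with the added count kept and -0.018 over peaks called in both libraries. These settings moved the median of all genes by 0.14, 0.09, 0.12, 0.12 and 0.10 as well. The count of 16 lower members (7.24%, beside 6.6% of all genes) became 8, 10, 8 and 8 of 221 with the first 4 of them, 9 of 156 over peaks called in both and 1 of 221 at fold 2. The shares of all genes were then 3.65%, 4.54%, 3.24%, 2.98%, 3.01% and 0.839%, so the background fell too. The count of 3 higher members (1.36%, beside 1.54% of all genes) became 8 with median-of-ratios scaling (3.81% of all genes), 5 with equal total density (2.70%), 10 with recovered reads at equal total, with the added count off or kept (4.32% and 4.09%), 6 with reads scaled on promoter peaks called in both (3.21%), 0 at fold 2 (0.154%) and 6 with the strongest peak of each gene (2.61%), each of 221. It was 5 of 174 in the stronger part of all peaks (1.60%) and 1 of 118 with promoter peaks only (1.89%). The promoter peak median of -0.09 became 0.044, -0.0065, -0.015, -0.011 and -0.020 in the first order. The median of the other peaks became -0.0028, -0.052, 0.0076, 0.011 and -0.012, and -0.046 with reads scaled on promoter peaks called in both. Zfp652, at 0.42, was at 0.69 among stronger peaks, which leave out its weaker ones, and at 0.24 over peaks called in both libraries, which leave out the peak in exon 2. It has no promoter peak and so no value there. Of 40 other named members 0 changed sign under pseudocount 0.1, 8 with median-of-ratios scaling, 4 with equal total density and 7 with recovered reads at equal total. Without overlapping windows 2 of 39 did. Over peaks called in both libraries 5 of 35 did, and Zfp516 (0.07), Zfp521 (0.27) and Zfp609 (0.23) turned above 0, outside their intervals. By the strongest peak 5 of 40 did, among them Zfp423 (-0.11), Zfp516 (0.07) and Zfp827 (0.03). Zfp148 (-0.69, past 1.5-fold), Zfp521 and Zfp532 also lay outside their intervals by the strongest peak. Zfp451 lay outside its interval in the stronger part of all peaks. With promoter peaks only 3 of 21 changed sign, among them Zfp148 (0.17) and Zfp608 (0.48). None of the changes of sign was at a member past 1.5-fold. The reads kept with the added count, the reads scaled on promoter peaks and the split of promoter peaks by KRAB were added after the data were seen. Depth limits single members. The median member had 63 reads in SiPiezo2. The interval held 0 for 184 of 221 members (83.3%), beside 82.6% of all genes, and the part of depth in this was not tested. Variation between cultures was not measured.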
